A study of Mus musculus with 12 samples.

Results

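Whole-lung RNA of 4 smoke-exposed Rora mutant mice was compared with that of 4 smoke-exposed wild-type (WT) mice, 8 of the 12 single-colour Agilent arrays of the series, 1 array per mouse. The labels give every mouse as a C57Bl/6 male aged 12 weeks, and smoke came from a smoking machine on 5 days a week for 4 months, which is longer than 12 weeks. The Rora allele is not given in the sources used here, and neither is the cell type in which it acts. The other 4 arrays, WT mice in room air, are given beside the smoke groups as levels only, since a comparison with them would share the WT smoke arrays. No array of a mutant in room air was analysed here, so the genotype and its interaction with smoke cannot be told apart. Of 41174 probes, 29716 passed the background test (signal well above background) on 4 or more of the 8 smoke arrays and were kept. They stood for 19520 genes, each by its probe with the highest mean level. Of these, 19006 genes lay outside an interval of 20 Mb to each side of the Rora probe (chromosome 9, 49177998 to 89177998 on mouse build mm8), 360 lay inside it, and 154 had no position in the files. Genes inside the interval are described apart.

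Rora encodes ROR-alpha, a nuclear receptor that binds short DNA motifs called ROR elements and activates transcription there. The REV-ERB receptors, encoded by Nr1d1 and Nr1d2, bind the same motifs and repress, and this pair of opposing inputs forms an arm of the circadian clock. ROR-alpha is also known to be required for the development of group 2 innate lymphoid cells, lung-resident lymphocytes that respond to the alarmins IL-33 and IL-25, and to act in macrophages and in lipid metabolism.

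Levels below are log2 processed signal over the 75th percentile of the array, and a change is the mutant mean minus the WT smoke mean on that scale, with its standard error (SE). A gene was called where its two-sided limma p, adjusted by Benjamini-Hochberg across the 29716 kept probes, was below 0.05. Changes of dim probes are compressed or noisy, and in whole lung fewer cells of a type and less RNA per cell cannot be told apart. Nothing in the labels says more of the replicates than that they are biological.

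The 12 arrays had 70.1% to 74.8% of their spots well above background. Across kept probes the smoke arrays correlated at 0.9938 to 0.9963 within and 0.9911 to 0.9949 between the groups. All 16 lung markers checked, from Sftpc of alveolar type 2 cells to Cdh5 of endothelium, passed the background test on all 8 smoke arrays. The heart muscle gene Myl7 did as well, at 5.67 ± 0.16 in mutants and 5.24 ± 0.27 in WT smoke (SD, n = 4). Markers of thymus and oesophagus disagreed. Dntt of thymus and Krt13 of oesophagus passed the test on all 8 smoke arrays, whereas Rag1 and Krt4, of the same tissues, were not well above background on any. Sex-linked RNA went against the label male in the room-air group. Xist, the RNA of the inactive X chromosome, stood at 3.97 to 4.13 there against -8.17 to -3.18 in WT smoke and -6.26 to -3.38 in mutant smoke. RNA of Ddx3y, Kdm5d and Uty, which lie on the Y chromosome, passed the background test on all 8 smoke arrays and on none in room air (0 of 4). The smoke groups were alike in this respect, whereas each room-air level below comes with this difference.

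Rora RNA was lower in all 4 mutants at each of its 3 kept probes, and it stayed well above background there. The brightest probe (69177968 to 69178027) read -0.95, -0.92, -1.14 and -1.04 in mutants 1 to 4 against 1.15, 1.23, 1.20 and 1.16 in WT smoke 1 to 4 and 1.07, 1.16, 1.08 and 1.09 in room air. The groups did not overlap, and the change was -2.20 ± 0.06 (limma adjusted p = 9.81e-07), a 4.59-fold lower level. The second probe of the same transcript (69178068 to 69178127) read -1.69, -1.57, -1.74 and -1.65 against 0.66, 0.65, 0.66 and 0.71, a change of -2.33 ± 0.06 (adjusted p = 4.00e-07). The third, matched to the cDNA AK087905 (69184462 to 69184521), was much dimmer and read -5.83, -5.14, -5.21 and -5.77 against -3.21, -3.06, -2.99 and -3.36, a change of -2.34 ± 0.17 (adjusted p = 0.000696). A two-sided exact permutation test gave p = 0.0286 for each, the smallest that 4 arrays against 4 allow. Where in the gene the mutation lies relative to these probes is not given in the sources used here.

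**Figure D1:**
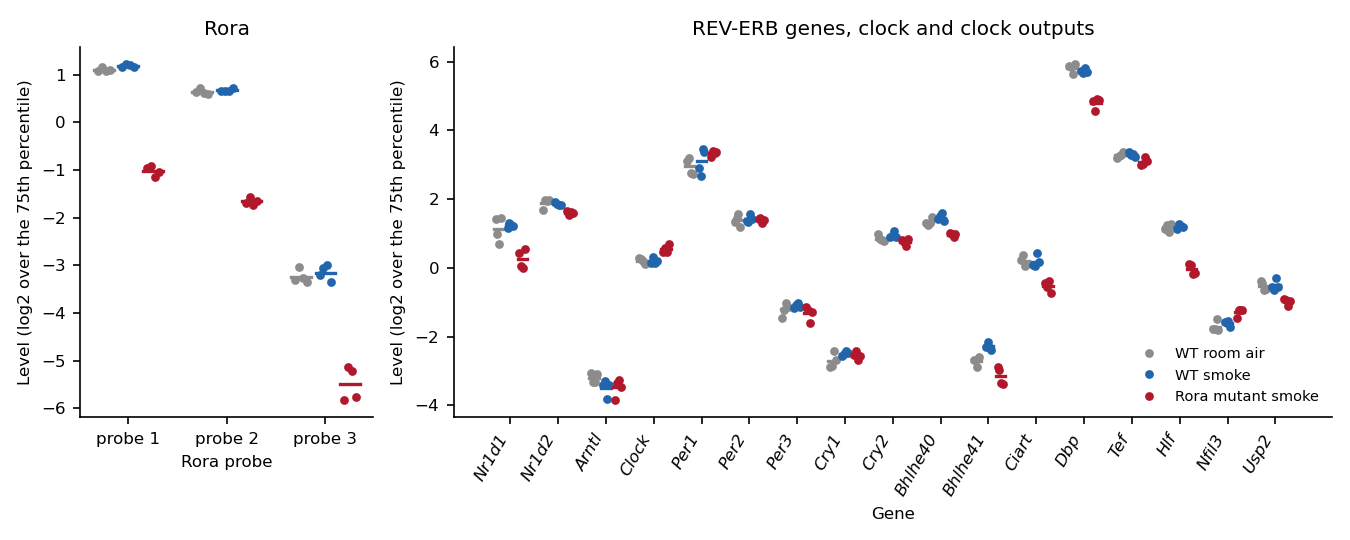
Levels of the 3 Rora probes (left) and of 17 genes of the clock and its outputs, the REV-ERB genes among them (right) in each array, as log2 over the array's 75th percentile. Points are mice, bars are group means of 4 mice, and the mutant points lie below both WT groups for Rora, Nr1d1, Dbp, Hlf and Ciart and below WT smoke for Bhlhe41, while those of Arntl, Per1, Per2 and Cry1 overlap WT smoke.

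Outside the interval, 383 of 28936 probes (1.32%) were called higher and 602 (2.08%) lower in mutants. By gene, 295 of 19006 (1.55%) were called higher and 369 (1.94%) lower, and the arrays of the smoke groups did not overlap for 2530 genes (13.3%). The shares of 1.55% higher and 1.94% lower are the background for every list count below. Most changes were small: 292 of the 664 called genes differed at least 1.5-fold, and 39 rose and 30 fell at least 2-fold. The median change over all genes outside was 0.0029 and the median size 0.0981 log2 units. With the slide as a block, 143 probes were higher and 192 lower. Leaving out a single array gave 120 to 354 higher and 130 to 835 lower probes. Higher probes numbered 156 and 154 without mutant replicates 1 and 4, and 128, 148, 120 and 187 when WT smoke replicates 1 to 4 were each omitted. Lower probes numbered 207, 356 and 165 without mutant replicates 1, 3 and 4. When a WT smoke array was omitted they numbered 130, 192, 138 and 316, for replicates 1 to 4.

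**Figure D2:**
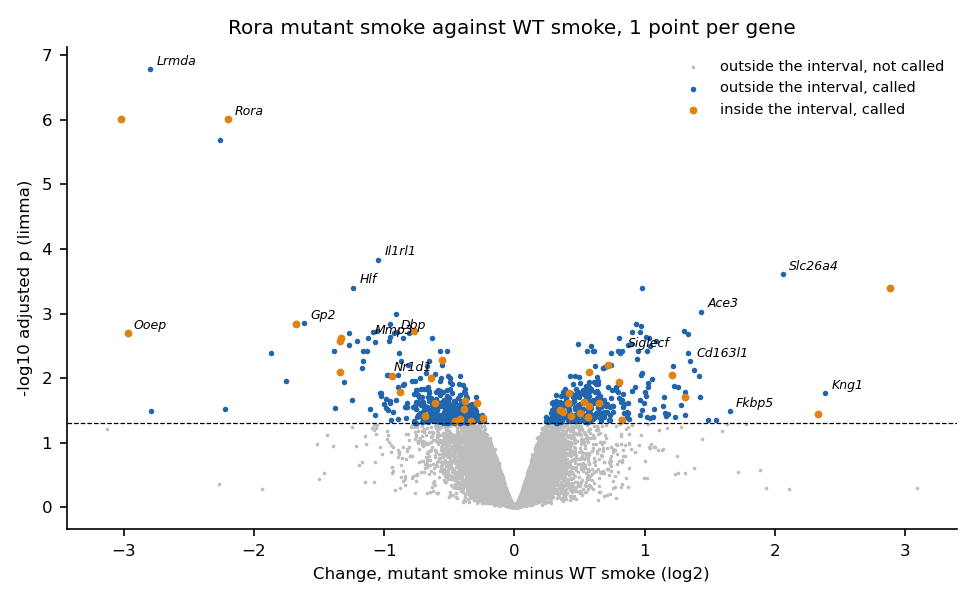
Change (log2, mutant smoke minus WT smoke) against -log10 of the limma adjusted p, 1 point per gene; the dashed line marks an adjusted p of 0.05. Inside the interval only called genes are drawn, and Lrmda, Rora, Il1rl1, Hlf and Slc26a4 are among the points with the smallest adjusted p.

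Genes named for the size of their change were taken among called genes whose smoke groups did not overlap, so for them the lack of overlap is a description. Among the largest rises outside the interval was Slc26a4, which encodes the anion exchanger pendrin of secretory epithelium and thyroid. It read 1.35, 1.11, 0.80 and 0.91 in the mutants and -0.87, -1.16, -1.08 and -0.98 in WT smoke, so every mutant was above every WT mouse. The change of 2.06 ± 0.12 (limma adjusted p = 0.000242) was a 4.18-fold rise, and room air lay between, at -0.13, -0.36, 0.29 and -0.22. The thyroid gene Tg also rose (0.64 ± 0.09), and the part of thyroid tissue in the result for Slc26a4 was not tested. Fgg, the gamma chain of fibrinogen, read -1.45, -2.19, -2.27 and -1.77 against -3.06, -3.54, -3.37 and -3.37, and rose by 1.41 ± 0.18 (adjusted p = 0.00922); in room air it was -1.45, -1.32, -1.31 and -1.89. Ace3, a relative of angiotensin-converting enzyme, read -3.65, -3.75, -3.73 and -3.51 against -5.39, -5.08, -4.88 and -5.03, with no overlap and a rise of 1.44 ± 0.11 (adjusted p = 0.000933). Cd163l1, a scavenger receptor of the CD163 family, rose by 1.35 ± 0.16 (adjusted p = 0.00547), Oas1d, of the oligoadenylate synthetase family, by 1.33 ± 0.15 and the membrane protein Tmem213 by 1.30 ± 0.12. Each of these 7 kept its call in all settings tried.

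Other large rises were dimmer or less steady. Kng1, the precursor of kinins, passed the background test in 4 of 4 mutants but 0 of 4 WT smoke mice, and its level was at least 2.72-fold higher. Slc51a, a subunit of a bile acid and steroid transporter, was at least 1.82-fold and Klb, a co-receptor for endocrine fibroblast growth factors, at least 1.71-fold higher. All 3 passed the filter through the mutants alone. They were kept only because all 4 mutants passed the background test, and no p is read from them. These bounds are set against the dimmest signal well above background on the WT arrays. Lrrc15, a membrane protein of activated fibroblasts, rose by 1.43 ± 0.23 and passed the background test in 1 of 4 WT smoke mice. Retn, the hormone resistin, rose by 1.49 ± 0.32, and its call ended in 10 of 19 settings, the slide block among them (adjusted p = 0.0520). Fkbp5, a co-chaperone induced by glucocorticoids, read 0.38, 1.19, 1.22 and 1.37 against -0.90, -1.30, -0.32 and 0.08: a rise of 1.65 ± 0.32 (adjusted p = 0.0321) by this probe, whereas its other probes changed by 0.40 and 0.44 and were not called.

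Lrmda, a leucine-rich repeat gene linked to melanocyte differentiation, had the largest fall among the called genes outside the interval. It read -1.50, -1.47, -1.47 and -1.60 in mutants against 1.29, 1.28, 1.23 and 1.33 in WT smoke and 1.24, 1.17, 1.18 and 1.15 in room air. Its fall of 2.80 log2 units (SE 0.06, limma adjusted p = 1.63e-07) had the smallest adjusted p of all genes outside. Hlf, a clock output factor described below, was also among the largest falls. Gp2, a membrane glycoprotein of secretory granules and M cells, read -5.19, -5.34, -5.48 and -5.63 against -3.56, -3.67, -3.87 and -4.09, a change of -1.61 ± 0.13 (adjusted p = 0.00139), with the room-air mice higher still at -1.78, -1.80, -1.31 and -2.84. Crispld2, a secreted protein expressed by lung fibroblasts, read 0.53, 0.94, 0.57 and 0.35 against 1.57, 1.80, 1.90 and 1.78 and changed by -1.16 ± 0.12 (adjusted p = 0.00378). Nat8 and Nat8f5, N-acetyltransferase genes of 1 cluster on chromosome 6, fell by similar amounts, with changes of -1.17 ± 0.14 and -1.21 ± 0.12. The deiodinase Dio3, which inactivates thyroid hormone, changed by -1.17 ± 0.14, the protease inhibitor gene Wfdc12 by -1.31 ± 0.18 and the zinc finger gene Zfp663 by -1.75 ± 0.24. All were called in every setting in which they were measured, 18 for Zfp663 and 19 for the others. Cpxm1, a carboxypeptidase-like secreted protein, was at -0.01, 0.55, 0.32 and -0.57 in the mutants and 1.30, 1.27, 1.34 and 1.39 in WT smoke, so its spread lay in the mutants, and its call ended in 8 of 19 settings. Ntm, the neural adhesion protein neurotrimin, changed by -2.22 ± 0.42 and was well above background on 1 of 4 mutant arrays; its call ended in 9 of 18 settings, the slide block among them.

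The REV-ERB genes were lower in the mutants. Nr1d1 (REV-ERB-alpha) read 0.43, 0.05, -0.01 and 0.55 in mutants against 1.15, 1.32, 1.26 and 1.21 in WT smoke, and the groups were apart. Its level was 1.97-fold lower (change -0.98 ± 0.13, limma adjusted p = 0.00899); its other probes changed by -0.85 (called) and -0.38 (not called). Nr1d2 (REV-ERB-beta) read 1.65, 1.54, 1.62 and 1.59 against 1.90, 1.86, 1.83 and 1.82, a smaller change of -0.26 ± 0.05 (adjusted p = 0.0397) whose call ended in 11 of 19 settings, the slide block among them.

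Of 18 core clock genes measured, all outside the interval, 5 fell, 1 rose and 12 were not called, and the list median was -0.20. The 6 called make 33.3%, against 1.55% higher and 1.94% lower over all genes outside; over the settings 3 to 7 were lower and 0 to 1 higher. The 5 that fell are known targets of the activators CLOCK and BMAL1, but so are the Per and Cry genes described below, which were not called. A shared cause was not tested. Beside the REV-ERB genes, Bhlhe41, a repressor of the clock, read -2.87, -2.98, -3.34 and -3.38 against -2.29, -2.15, -2.31 and -2.38 (change -0.86 ± 0.12, limma adjusted p = 0.0128). Its paralog Bhlhe40 read 1.01, 1.00, 0.89 and 0.98 against 1.42, 1.49, 1.58 and 1.35 (change -0.50 ± 0.07, adjusted p = 0.00989). Ciart, a repressor of the activators CLOCK and BMAL1, read -0.45, -0.57, -0.38 and -0.73 against 0.07, 0.07, 0.43 and 0.17, a change of -0.72 ± 0.10 (adjusted p = 0.0147). In none of these 3 did a mutant overlap a WT smoke mouse.

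Of the activators and of the Per and Cry repressors, 1 gene was called. Arntl, which encodes BMAL1 and is a known target of ROR-alpha and REV-ERB-alpha, read -3.85, -3.35, -3.26 and -3.46 against -3.41, -3.29, -3.81 and -3.42, with overlapping groups and a change of 0.00 ± 0.15 (limma adjusted p = 0.994). Clock, its partner, rose by 0.35 ± 0.07 (adjusted p = 0.0401), a call that ended in 13 of 19 settings, and 2 of its 3 other probes were called higher as well. The feedback repressors changed by 0.23 ± 0.16 (Per1), -0.02 ± 0.07 (Per2), -0.21 ± 0.10 (Per3), -0.06 ± 0.07 (Cry1) and -0.18 ± 0.07 (Cry2) and none was called. Of the kinases and ligase subunits that set the stability of these repressors, Csnk1d (0.04 ± 0.07), Csnk1e (-0.37 ± 0.09) and Fbxl21 (-0.44 ± 0.10) were not called. Arntl2 (-0.80 ± 0.28) and Timeless (-0.02 ± 0.11) were not called either. The time of day at which the lungs were taken is not given in the sources used here, so phase and level cannot be told apart.

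Of 12 PAR bZIP factors and clock outputs, 3 fell (25%, against 1.94% of all genes), 0 rose and 9 were not called. Hlf, a PAR bZIP factor that binds D-box elements, read 0.10, 0.07, -0.18 and -0.15 in mutants against 1.13, 1.27, 1.21 and 1.18 in WT smoke and 1.14, 1.25, 1.06 and 1.26 in room air. It fell by 1.24 log2 units (SE 0.08, limma adjusted p = 0.000395). Dbp, its relative and a classical E-box target, read 4.85, 4.55, 4.91 and 4.87 against 5.71, 5.67, 5.80 and 5.69, with mutant 2 the lowest of all 8. The change was -0.92 ± 0.09 (adjusted p = 0.00198). Tef, the other PAR bZIP gene, changed by -0.20 ± 0.07 and was not called. Usp2, a rhythmic deubiquitinase on chromosome 9 outside the interval, changed by -0.47 ± 0.09 (adjusted p = 0.0278), and that call ended in 9 of 19 settings. Nfil3, the repressor that opposes PAR bZIP factors at D-boxes, was 0.33 ± 0.07 higher with an adjusted p of 0.0507, just short of a call. The other members were not called: Wee1 0.03 ± 0.09, Noct 0.16 ± 0.06, Nampt 0.06 ± 0.07, Cys1 -0.38 ± 0.09, Lonrf3 -0.07 ± 0.09, Tsc22d3 0.35 ± 0.19 and Klf9 -0.03 ± 0.16. The list median was -0.05.

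The promoters of the 9 clock and receptor genes called outside the interval were searched, since most of these genes fell together. RefSeq (GRCm38.p6) gave the window from 250 bases before to 50 after the start for 8 of them, 10 windows in all. The E-box CACGTG, bound by CLOCK and BMAL1 and by BHLHE40 and BHLHE41, was in the windows of Bhlhe41 and Ciart. It was 3 times in that of Ciart, at -116, -58 and -44 from the start, and at -153 in that of Bhlhe41, and 7.15% of 32851 promoters hold it. The ROR element cores TAGGTCA and TGGGTCA (on either strand) were in none of the 10 windows, against 6.45% of all promoters for either, and the D-boxes TTATGTAA and TTACGTAA in none, against 1.06%. These matches are descriptions of the letters in the windows. The sequences of both windows with an E-box, and of Nr1d1 for comparison, run 5′ to 3′ on the gene's strand with the E-boxes in capitals. Their places are chr3:95882179-95882478 (minus strand), chr6:145865371-145865670 (minus strand) and chr11:98775328-98775627 (minus strand).
Ciart: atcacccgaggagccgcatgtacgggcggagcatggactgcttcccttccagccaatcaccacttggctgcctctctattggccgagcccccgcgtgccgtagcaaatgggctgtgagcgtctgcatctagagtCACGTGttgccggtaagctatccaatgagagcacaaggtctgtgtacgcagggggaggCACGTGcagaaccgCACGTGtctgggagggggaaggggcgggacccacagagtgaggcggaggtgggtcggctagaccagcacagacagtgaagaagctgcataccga
Bhlhe41: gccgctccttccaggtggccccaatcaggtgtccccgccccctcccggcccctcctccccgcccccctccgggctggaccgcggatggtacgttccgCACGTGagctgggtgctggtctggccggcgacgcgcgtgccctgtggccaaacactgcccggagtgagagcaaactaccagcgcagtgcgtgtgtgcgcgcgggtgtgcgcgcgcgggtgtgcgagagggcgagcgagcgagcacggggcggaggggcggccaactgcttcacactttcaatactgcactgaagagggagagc
Nr1d1: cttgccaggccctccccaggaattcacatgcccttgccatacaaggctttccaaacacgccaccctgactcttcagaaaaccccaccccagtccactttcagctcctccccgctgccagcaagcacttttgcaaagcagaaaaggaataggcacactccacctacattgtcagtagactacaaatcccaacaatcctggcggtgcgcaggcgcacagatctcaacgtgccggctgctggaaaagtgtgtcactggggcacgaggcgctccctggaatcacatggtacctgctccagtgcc

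Of 20 measured genes reported as ROR-alpha targets, 2 rose, 2 fell and 16 were not called; the list median was 0.10, and 12 lay above and 8 below 0. Nr1d1 was among those that fell. So was Cyp7b1, an oxysterol hydroxylase, which read -0.46, -0.31, -0.37 and -0.46 against -0.06, -0.09, 0.02 and -0.02 (change -0.36 ± 0.06, limma adjusted p = 0.0202; 0.0586 with the slide block). Abcg1, a cholesterol exporter, rose by 0.34 ± 0.07 (adjusted p = 0.0364) and Cd36, a fatty acid and lipoprotein receptor, by 0.27 ± 0.06 (adjusted p = 0.0448). Both are also genes of lipid-laden macrophages, and their calls ended in 12 and 15 of 19 settings. The called share, 4 of 20, mixes both directions.

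Receptors for the alarmins of type 2 immunity were lower in the mutants. Il1rl1, the IL-33 receptor ST2, read -2.51, -2.38, -2.54 and -2.54 in mutants, -1.49, -1.44, -1.43 and -1.45 in WT smoke and -0.86, -1.21, -0.97 and -0.97 in room air. The WT smoke mice lay close together and every mutant lay below every WT mouse. The change of -1.05 ± 0.06 (limma adjusted p = 0.000146) was called in all settings. Il17rb, the receptor subunit for IL-25, read -5.52, -5.65, -5.40 and -5.84 against -4.61, -4.42, -4.47 and -4.58, again with no overlap (change -1.08 ± 0.10, adjusted p = 0.00195). It was a dim probe, and with normexp background correction the change shrank to -0.21, still called.

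Over the list of 26 type 2 and innate lymphoid genes measured, 5 fell, 2 rose and 19 were not called, with a median of -0.16. The called share was 26.9%, against 1.55% higher and 1.94% lower over all genes. The fallen genes also held Ccl11, an eosinophil chemokine (-2.25, -2.19, -2.07 and -2.07 against -1.51, -1.85, -1.53 and -1.59, change -0.52 ± 0.09, adjusted p = 0.0218). Retnla, a secreted protein of alternatively activated macrophages, read 2.29, 2.05, 2.63 and 2.42 against 3.25, 3.05, 3.10 and 2.87 and 4.14, 4.50, 4.55 and 3.36 in room air (change -0.72 ± 0.13, adjusted p = 0.0262). Cysltr1, a leukotriene receptor, changed by -0.58. The genes that rose were the chitinase-like proteins Chil3 (0.73) and Chil4 (1.04), so the markers of alternative activation did not move in 1 direction. Calls of Ccl11 and Retnla ended in 6 and 8 of 19 settings, and 2 to 6 members were lower and 0 to 2 higher over all of them.

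Alveolar macrophage genes rose in part. Of 31 measured outside the interval, 10 rose (32.3%, against 1.55% of all genes), 0 fell and 21 were not called. All 31 had a change above 0, and the list median was 0.39. The medians of the single mutants, relative to the WT smoke mean, were 0.40, 0.47, 0.29 and 0.48, and those of the WT mice ran from -0.09 to 0.06. Siglecf, the lectin that marks alveolar macrophages and eosinophils, read -0.38, -0.37, -0.57 and -0.24 against -1.14, -1.22, -1.11 and -1.38 (change 0.82 ± 0.09, limma adjusted p = 0.00378). Mrc1, the mannose receptor, read 0.72, 0.71, 0.75 and 0.82 against 0.34, 0.25, 0.17 and -0.06 (change 0.58 ± 0.09, adjusted p = 0.0160; 0.0509 with the slide block).

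Olr1, a receptor for oxidised lipoprotein, rose by 0.61 ± 0.07 and the chemokine Ccl6 by 0.50 ± 0.08, from 4.07 ± 0.10 to 4.57 ± 0.11 (SD, n = 4). Chil3, Atp6v0d2 (0.62, a proton pump subunit), Gpnmb (0.41), Mcoln3 (0.50, a lysosomal channel), Clec4n (0.53) and Abcg1 completed the called members. Marco, a scavenger receptor, was 0.81 higher and not called (adjusted p = 0.0778). The number called varied widely, from 2 to 15 over the settings, while the median stayed between 0.28 and 0.45 and was 0.43, 0.53 and 0.30 within slides 1 to 3. The list's summed signal, in multiples of the 75th percentile, was 559 to 697 in mutants and 501 to 626 in WT smoke, which overlap. That sum takes in all 32 members measured, 1 of them inside the interval. Of 19 monocyte and interstitial macrophage genes limma called 0 (6 at an unadjusted p under 0.05), with a median of 0.06.

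**Figure D3:**
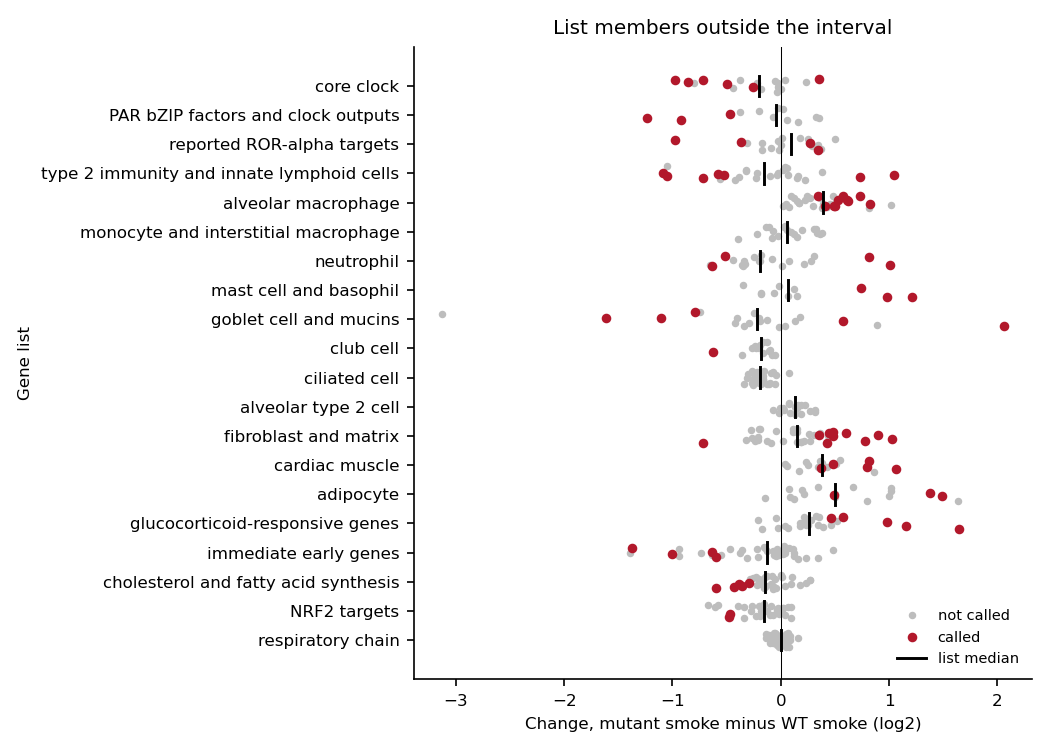
Change (log2, mutant smoke minus WT smoke) of each measured member of 20 gene lists outside the interval; red points were called, grey points were not, and black bars mark list medians. All 31 alveolar macrophage genes lie above 0, the called clock genes lie mostly below, and the respiratory chain is centred on 0.

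Genes of 3 mast cell proteases rose. Of 11 mast cell and basophil genes measured, 3 rose (against 1.55% of all genes), 0 fell and 8 were not called. Cpa3, carboxypeptidase A of mast cells, read -4.23, -4.11, -4.57 and -4.38 against -5.39, -5.92, -5.29 and -5.56 (change 1.22 ± 0.15, limma adjusted p = 0.00646). Mcpt4, a chymase of connective tissue mast cells, read -3.13, -3.17, -3.07 and -2.92 against -4.09, -4.38, -3.77 and -3.96 (change 0.98 ± 0.12, adjusted p = 0.00827), and the chymase Cma1 rose by 0.75 ± 0.14 (adjusted p = 0.0272). The Cma1 call ended in 8 of 19 settings, the slide block (adjusted p = 0.0586) among them. The list median was 0.07 and 5 of the 11 lay below 0. The list's summed signal overlapped, at 23.4 to 26.9 in mutants and 23.8 to 25.1 in WT smoke.

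Neutrophil genes split. Of 20 measured, 2 rose and 2 fell, with a median of -0.19. The formyl peptide receptors rose: Fpr1 read 1.03, 0.94, 0.77 and 1.12 against -0.04, 0.14, -0.20 and -0.08 (change 1.01 ± 0.10, limma adjusted p = 0.00235), and Fpr2 changed by 0.81 ± 0.14 (adjusted p = 0.0238). The chemokine receptor Cxcr2 (-0.64 ± 0.11, adjusted p = 0.0259) and the gelatinase Mmp9 (-0.52 ± 0.09, adjusted p = 0.0248) fell, though each has another probe that was not called. Within slides the list median was -0.45, -0.44 and 0.10, so slide 3 went the other way.

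Lymphocyte and antigen-presentation lists held few calls: limma called 0 of 21 T cell, 0 of 14 natural killer cell and 0 of 26 MHC class II and dendritic cell genes, with 1, 0 and 5 at an unadjusted p under 0.05. Of 20 B and plasma cell genes 1 fell, the B cell factor Ebf1 (-0.37 ± 0.08, limma adjusted p = 0.0491), a call lost in 17 of 19 settings. The B cell list's median was -0.33, but mutant 3 stood at 0.22 and the other mutants at -0.43, -0.36 and -0.77 relative to WT smoke. Of 34 interferon-stimulated genes 1 fell, the RNA sensor Ddx58 (-0.56 ± 0.12), whose 3 other probes were not called and whose call ended in 13 of 19 settings. Of 12 IL-17 axis genes limma called 0 (4 at an unadjusted p under 0.05).

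**Figure D4:**
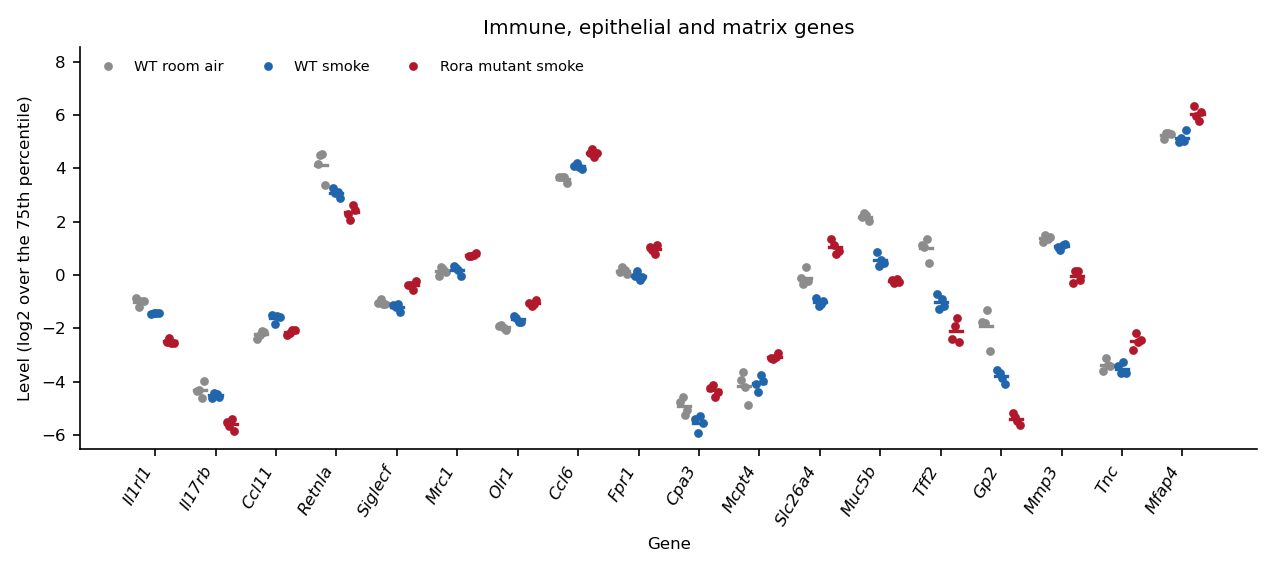
Levels of 18 immune, epithelial and matrix genes in each array, as log2 over the array's 75th percentile; points are mice and bars are means of 4 mice. The mutants lie below WT smoke for Il1rl1, Il17rb, Gp2 and Mmp3 and above it for Siglecf, Fpr1, Cpa3, Mcpt4, Slc26a4 and Tnc.

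Secretory airway genes changed in both directions. Of 20 goblet cell and mucin genes, 3 fell, 2 rose and 15 were not called, with a median of -0.22. The called share was 25%, against 1.55% higher and 1.94% lower over all genes. The gel-forming mucin Muc5b read -0.20, -0.29, -0.15 and -0.28 in mutants, 0.86, 0.34, 0.57 and 0.45 in WT smoke and 2.16, 2.34, 2.23 and 2.02 in room air (change -0.79 ± 0.11, limma adjusted p = 0.0112). Tff2, a mucus-associated trefoil peptide, read -2.42, -1.91, -1.62 and -2.52 against -0.71, -1.26, -0.92 and -1.16 (change -1.11 ± 0.21, adjusted p = 0.0304; 1.12, 1.05, 1.34 and 0.45 in room air), a call lost in 9 of 19 settings. For Muc5b, Tff2 and Gp2 the order was the same: room air highest, WT smoke between, mutant smoke lowest. Slc26a4, which rose, and the iron-binding protein Lcn2 (0.58) were the members that rose.

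Of the other epithelial lists, 1 of 14 club cell genes fell, the GABA receptor subunit Gabrp (-0.62 ± 0.11, limma adjusted p = 0.0253), and all 14 had a change below 0. The list medians of single mice overlapped, however. Relative to the WT smoke mean they were -0.169, -0.125, -0.182 and -0.252 in mutants 1 to 4. In WT smoke replicates 1 to 4 they were 0.183, -0.244, 0.028 and 0.014. Within slides 1 to 3 the club cell median was -0.349, -0.033 and -0.246. Ciliated cell genes held 0 limma calls among 30 (14 at an unadjusted p under 0.05), with 29 below 0 and a median of -0.19. Their summed signal was 78.7 to 84.5 in mutants and 85.7 to 110 in WT smoke, with no overlap, and the highest WT median, of replicate 1, stood at 0.20 relative to the group mean. Of 18 alveolar type 2 genes 0 were called in limma (6 at an unadjusted p under 0.05, median 0.13), and of 21 alveolar type 1 genes 0 (3 at that level, median 0.08). The surfactant gene Sftpc was at 9.27 ± 0.04 and 9.34 ± 0.40 in the smoke groups (SD, n = 4).

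Matrix genes rose in part. Of 35 fibroblast and matrix genes measured outside the interval, 9 rose, 1 fell and 25 were not called, with a median of 0.15. The called share was 28.6%, against 1.55% higher and 1.94% lower over all genes, and 12 members lay below 0. The summed signal of all 36 members measured did not rise, at 509 to 623 in mutants and 565 to 669 in WT smoke, which overlap. Tnc, the repair-associated glycoprotein tenascin C, read -2.83, -2.17, -2.52 and -2.45 against -3.40, -3.70, -3.29 and -3.69 (change 1.03 ± 0.15, limma adjusted p = 0.0139). Mfap4, a microfibril protein, read 6.32, 5.96, 5.77 and 6.12 against 5.00, 5.12, 5.02 and 5.43 (change 0.90 ± 0.14, adjusted p = 0.0160). Fbln1, fibulin 1, rose by 0.78 ± 0.11 and the collagen Col14a1 by 0.42 ± 0.07. The elastic fibre genes Eln (0.60) and Fbn1 (0.35), the microfibrillar collagens Col6a1 (0.48) and Col6a2 (0.49) and the growth factor receptor Pdgfra (0.45) were called too. The slide block ended the calls of Tnc (adjusted p = 0.0505) and Col14a1 (adjusted p = 0.0767). The fallen gene was Npnt, nephronectin of the alveolar basement membrane (-0.71). Slide 2 gave a list median of 0.33 and slide 3 one of -0.01, and over the settings 2 to 9 members were higher.

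Of 34 proteases and inhibitors, 3 rose and 2 fell (14.7% called, against 1.55% higher and 1.94% lower over all genes). Mmp3, stromelysin 1, read -0.29, 0.14, 0.13 and -0.20 in mutants, 1.04, 0.95, 1.13 and 1.14 in WT smoke and 1.22, 1.50, 1.35 and 1.41 in room air, and fell by 1.12 log2 units (SE 0.11, limma adjusted p = 0.00244) in all settings. It lies on chromosome 9 outside the interval. Mmp9 was the other fall. Adamts4, an aggrecanase (1.18), Plat, tissue plasminogen activator (0.55 ± 0.09, adjusted p = 0.0200), and Ctss, the macrophage protease cathepsin S (0.38 ± 0.06, adjusted p = 0.0179), rose. Adamts4 passed the background test in only 1 of 4 WT smoke mice. The Plat call ended in 8 of 19 settings, the slide block among them. Endothelial genes held 1 call of 36, the connexin Gja5 (0.63 ± 0.08), whose other probes changed by -0.03 and 0.29 and were not called. Of 14 smooth muscle genes limma called 0 (4 at an unadjusted p under 0.05).

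Genes of heart, skeletal muscle and fat rose in part as well. Of 17 cardiac muscle genes outside the interval 5 rose (29.4%, against 1.55% of all genes) and 0 fell. All 17 lay above 0 and the median was 0.39. Pln, phospholamban, rose by 0.80 ± 0.13 (limma adjusted p = 0.0202), the ventricular light chain Myl3 by 1.06 ± 0.22, Mybpc3 by 0.82, the stretch-responsive Ankrd1 by 0.49 ± 0.09 and the slow myosin Myh7 by 0.38 ± 0.07. Calls of Pln (adjusted p = 0.0519), Myl3 (0.0828), Ankrd1 (0.0705) and Myh7 (0.0722) were lost under the slide block, and over the settings 0 to 6 members were higher. The summed signal of all 18 members measured, 1 of them inside the interval, was 132 to 161 in mutants and 89.2 to 123 in WT smoke. Of 19 skeletal muscle genes 2 rose, the myosins Myh1 (0.88 ± 0.19) and Myh2 (0.72 ± 0.16), each measured above background in 1 of 4 WT smoke mice, and the sums were 20.3 to 24.8 against 15.6 to 19.9. Both calls ended in 12 of 18 settings, the slide block among them, and 0 to 5 members were higher over the settings.

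Of 18 adipocyte genes 3 rose (16.7%, against 1.55% of all genes): Retn, Klb and the lipase Lipe (0.50 ± 0.08, limma adjusted p = 0.0200, a call lost under the slide block). Of these, Klb passed the filter through the mutants alone, so the share of 16.7% holds a call that is not read as a result. The list median was 0.50, and the sums were 54.7 to 67.3 in mutants against 32.7 to 54.7 in WT smoke. Of 8 genes of thymus and other neighbouring tissue 1 rose, thyroglobulin, Tg (-2.52, -2.62, -2.66 and -2.33 against -3.10, -3.33, -3.15 and -3.12, change 0.64 ± 0.09, adjusted p = 0.0112). WT smoke replicate 2 had the lowest medians of the heart, skeletal muscle and fat lists, at -0.34, -0.21 and -0.27 relative to its group. Whether these tissues in the sample have a part in the other differences was not tested.

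Glucocorticoid-responsive genes rose in part: 5 of 24 rose (20.8%, against 1.55% of all genes), 0 fell, and the median was 0.27. Beside Fkbp5, Angptl4, a lipase inhibitor secreted by many tissues, read 4.88, 5.09, 4.95 and 5.16 against 3.30, 3.58, 4.14 and 4.45 (change 1.15 ± 0.23, limma adjusted p = 0.0347), Pdk4, which shuts pyruvate oxidation, rose by 0.98 ± 0.19, the cell cycle inhibitor Cdkn1a by 0.47 ± 0.09 and Lcn2 by 0.58. The list's WT mice were not alike: replicates 1 and 2 stood at -0.17 and -0.19 and replicates 3 and 4 at 0.20 and 0.14 relative to their mean. The calls of Angptl4, Pdk4, Cdkn1a and Fkbp5 ended in 10, 7, 9 and 8 of 19 settings.

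Of 30 genes of PPAR signalling and fatty acid oxidation 3 rose, Angptl4, Pdk4 and the uncoupling protein Ucp3 (0.71 ± 0.12), and 1 fell, the coactivator Ppargc1a (-0.40 ± 0.09), whose other probe was not called (-0.01). The slide block ended the calls of Ucp3 and Ppargc1a (adjusted p = 0.0689 and 0.0669). Cholesterol and fatty acid synthesis went down in part: 5 of 34 genes fell (14.7%, against 1.94% of all genes), 0 rose, and the median was -0.14. Hsd17b7, a sterol ketoreductase, fell to -0.57 ± 0.16 from 0.03 ± 0.11 (SD, n = 4; change -0.60 ± 0.09, limma adjusted p = 0.0167). Its pathway neighbours Msmo1 (-0.39 ± 0.07) and Sqle (-0.36 ± 0.07) were also among them, and 0 to 8 members were lower over the settings. All 3 genes named lost their calls under the slide block.

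Of 37 immediate early genes, which are induced within minutes of a stimulus, 4 fell (10.8%, against 1.94% of all genes) and 0 rose, with a median of -0.13. Junb, an AP-1 factor, read 3.86, 3.87, 3.91 and 3.83 in mutants against 4.58, 4.52, 5.40 and 4.99 in WT smoke, so the spread lay in WT smoke (change -1.005 ± 0.18, limma adjusted p = 0.0250). Egr3, a zinc finger factor, read -5.79, -6.07, -5.55 and -6.14 against -4.79, -4.87, -3.70 and -4.67 (change -1.38 ± 0.26, adjusted p = 0.0293). Rgs2, a regulator of G protein signalling, read 3.76, 3.61, 3.67 and 3.67 against 4.21, 4.29, 4.38 and 4.36 (change -0.63 ± 0.06, adjusted p = 0.00237) and alone of the 4 kept its call in all settings. Ccn2, a matricellular protein, changed by -0.60 ± 0.11. The WT list medians were -0.18 and -0.14 for replicates 1 and 2 and 0.21 and 0.11 for replicates 3 and 4.

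Stress and housekeeping lists held few calls. Of 34 NRF2 targets outside the interval 2 fell, the glutathione transferase Gsta3 (5.56, 5.58, 5.62 and 5.43 against 6.09, 5.91, 6.08 and 6.01, change -0.48 ± 0.07, limma adjusted p = 0.0125) and the glutathione peroxidase Gpx2 (-0.47 ± 0.09; adjusted p = 0.0828 with the slide block). The called share was 5.9%, against 1.94% lower over all genes, and 15 of the 34 had an unadjusted limma p under 0.05. The list median was -0.15, with 27 members below 0, and 1 to 7 members were lower over the settings. In room air Gsta3 was at 5.51 ± 0.15 and Gpx2 at 2.52 ± 0.12 (SD, n = 4). Of 5 aryl hydrocarbon receptor targets outside the interval limma called 0 (3 at an unadjusted p under 0.05). Among 47 p53 and DNA damage genes Cdkn1a and Gadd45g (0.36 ± 0.08) rose, and among 40 cell cycle genes Ube2c rose (0.33 ± 0.06) and Nek2 fell (-0.34 ± 0.06). The called shares were 4.3% and 5%, against 1.55% higher and 1.94% lower over all genes. The calls of Gadd45g, Ube2c and Nek2 ended in 12, 11 and 10 of 19 settings, the slide block among them. Of 39 apoptosis and autophagy, 27 unfolded protein response, 16 heat shock, 23 lysosome and 44 respiratory chain genes limma called 0 each. At an unadjusted p under 0.05 there were 3, 5, 4, 7 and 0, and the respiratory chain median was 0.001.

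Of 19 fibrinogen and acute phase genes 2 were called higher, Fgg and Kng1, with a list median of -0.09. Kng1 was measured through the mutants alone, and its call is not read as a result. Of 16 erythroid genes 1 fell, the factor Gata1 (-0.69 ± 0.15), and 1 rose. The Gata1 call ended in 14 of 19 settings, the slide block (adjusted p = 0.123) among them, and 0 to 5 members were higher over the settings. The median was 0.43 and the summed signal 275 to 493 in mutants against 216 to 254 in WT smoke. Of 10 platelet genes limma called 0 (1 at an unadjusted p under 0.05). Of 4 eosinophil genes measured 1 rose, Siglecf, which the alveolar macrophage list holds too.

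Inside the interval around Rora, the share of called genes was higher than outside. Of 586 probes 27 (4.61%) were called higher and 36 (6.14%) lower, and of 360 genes 18 (5%) were higher and 21 (5.83%) lower. Of these 39 genes, 21 differed at least 1.5-fold and 11 at least 2-fold. With the slide as a block 16 probes were higher and 22 lower. Higher probes numbered 12 and 16 without mutant replicates 1 and 4 and 14, 15, 13 and 15 when WT smoke replicates 1 to 4 were each omitted. Lower probes numbered 20, 22 and 18 when WT smoke replicates 1 to 3 were. Chromosome 9 outside the interval had 41 of 712 genes called (5.76%), and the shares on the other autosomes ran from 1.99% (chromosome 4) to 4.93% (chromosome 10). No test was made of these shares, since neighbouring genes are not independent.

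The called genes were not spread evenly about Rora. From 20 Mb before the Rora probe to 5 Mb after it, 11 of 275 genes (4.0%) were called, and from 5 to 20 Mb after it 28 of 85 (32.9%). By steps of 5 Mb the shares after the probe were 6.67%, 39.5%, 30% and 25.9%, and 7.69% of 13 genes in the step just beyond 20 Mb. Before the probe no step inside the interval exceeded 7.27%. The median size of change was 0.10 in the first stretch and 0.24 in the second. The border at 5 Mb was set after these values were seen. Both directions occurred on the far side, with 13 genes higher and 15 lower. Which flanking DNA the mutants carry is not given in the sources used here, and sequence differences under a probe and differences in RNA level cannot be told apart on arrays.

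**Figure D5:**
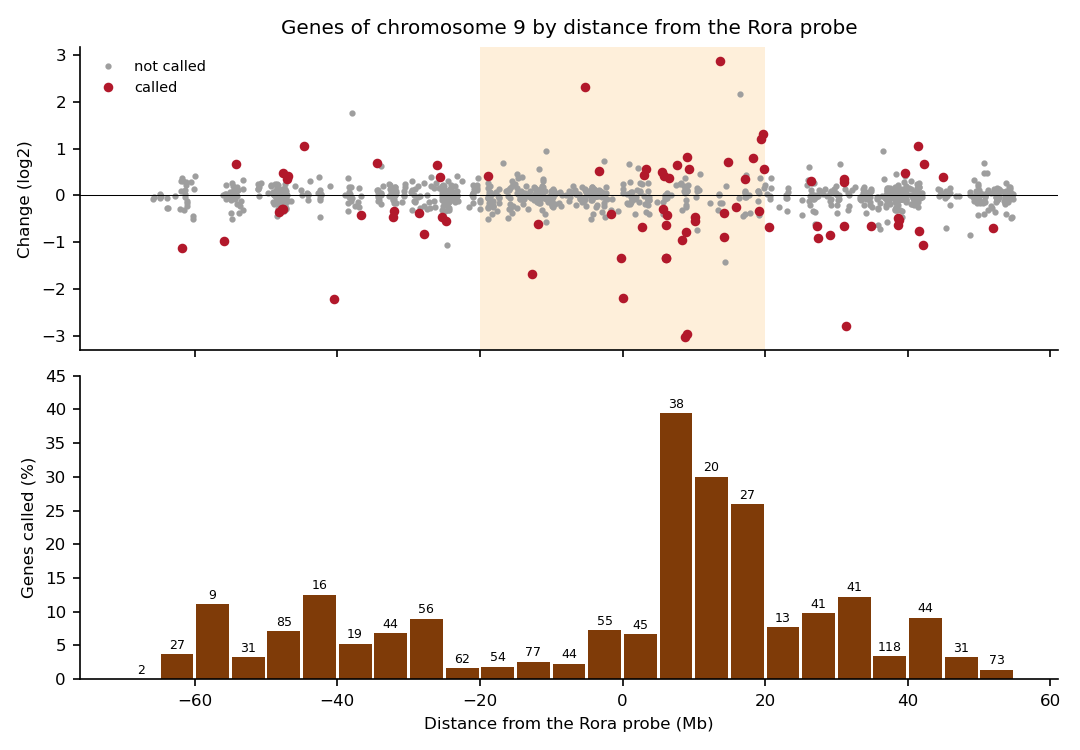
Genes of chromosome 9 by distance from the Rora probe in Mb. Top: change (log2, mutant smoke minus WT smoke) of each gene with the interval shaded; bottom: percent of genes called in steps of 5 Mb, with the number of genes above each bar. The 3 bars from 5 to 20 Mb stand at 25.9% to 39.5%.

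On that far side lay Ooep, an oocyte-expressed gene, at -5.72, -4.45, -5.77 and -5.73 in mutants against -2.52, -2.51, -2.49 and -2.28 in WT smoke (change -2.97 ± 0.28, limma adjusted p = 0.00198). Its neighbour Dppa5a, also known from oocytes and stem cells, read -1.81, -1.71, -1.74 and -1.88 against -0.99, -1.06, -1.10 and -0.89 (change -0.77 ± 0.07, adjusted p = 0.00185). Leo1, a subunit of the PAF1 transcription elongation complex, read -3.91, -3.83, -3.40 and -3.35 against -2.15, -2.28, -2.33 and -2.36 (change -1.34 ± 0.14, adjusted p = 0.00268). All 3 kept their calls in every setting.

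Gclc, the catalytic subunit of the enzyme that limits glutathione synthesis, sits there too, 8.40 Mb from the Rora probe. It read 2.67, 2.83, 2.52 and 2.73 in mutants, 3.73, 3.59, 3.89 and 3.32 in WT smoke and 3.05, 3.26, 3.29 and 2.95 in room air, so the mutants lay below both WT groups (change -0.94 ± 0.12, adjusted p = 0.00929). It was the 1 called gene of the 5 NRF2 targets measured inside the interval. Bckdhb, a subunit of the branched-chain keto acid dehydrogenase, read 0.73, 0.75, 0.52 and 0.47 against -0.06, -0.13, -0.21 and 0.01 (change 0.72 ± 0.09, adjusted p = 0.00636), and its other probe was called higher too. Mlip, a lamin-interacting protein of muscle, changed by 0.65 ± 0.11, the surface protein Cd109 by 0.57 ± 0.10 and the T-box factor Tbx18 by 0.80 ± 0.11. The other probes of Mlip (0.74) and Cd109 (0.18) were not called, the slide block ended the call of Cd109 (adjusted p = 0.0711), and Tbx18 passed the background test in 1 of 4 WT smoke mice.

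Nearer to Rora or before it, Rfx7, a winged-helix factor, rose by 0.57 ± 0.07 (limma adjusted p = 0.00816) by its brightest probe while its other probe fell by 0.36 (adjusted p = 0.0377), so the gene has no single direction. Lctl, a klotho-family protein, rose by 2.33 ± 0.47 and passed the background test in 1 of 4 WT smoke mice; its call ended in 8 of 18 settings. Lingo1, a neuronal membrane protein, changed by -1.68 ± 0.14 (adjusted p = 0.00146) and was well above background on 1 of 4 mutant arrays. Il18, a cytokine precursor, was 0.42 higher. The clone-named genes that follow and Il18 were chosen after their values were seen. On the far side, C920006O11Rik (-3.02) had the largest fall of the interval and 2810410P21Rik (2.88) the largest rise. The latter passed the background test in only 2 of 4 WT smoke mice. E130120C16Rik, 0.25 Mb before the Rora probe, changed by -1.34.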

How the data were processed

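The members of this comparison, the gene lists and the naming rule were chosen with earlier results of these data known. Total RNA of whole lung (100 ng, per the labels) was labelled with Cy3. Per the file headers the authors' processed signal is a linear intensity, background-subtracted and detrended within the array by Agilent Feature Extraction 9.5.3.1 (a version also in the submitters' processing notes). The raw spot mean and background are intensities in the same deposited files, whose flags, of unit other, hold 0 or 1. The authors' deposited value table holds log2 values, of which each array's median is about 6.80 and whose normalization method is not given in the sources used here. Probe positions are on mm8, per the file headers.

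Spots flagged as outliers and control spots were left out, and spots of 1 probe were averaged. Each log2 intensity was set relative to its array's 75th percentile. Probes that passed the background flag on 4 or more of the 8 smoke arrays were fitted with limma 3.58.1 (lmFit, eBayes) in R 4.3.3 on those arrays alone; tables and plots used Python 3.11.15, pandas 2.3.3 and matplotlib 3.10.9. The precision is limited by 4 arrays per group. Symbols were updated through a RefSeq table (GRCm38.p6), in which 15507 of the 19520 genes were found. Of the 9 genes whose promoters were sought, 8 were matched by symbol, with 10 promoter windows in all.

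Genes named are the 12 largest rises and falls outside the interval and the 6 inside among called genes without overlap, well above background on the brighter group's 4 arrays and with no clone name, up to 4 called members per list with the smallest p, and every kept member of the receptor and clock lists; a few genes that this rule or the lists hold are not reported here. Further called list members and the sex-linked genes are named to complete counts and were chosen after their values were seen. Each slide held arrays of both smoke groups: slide 1 mutant 1 and WT 1, slide 2 mutant 2 and WT 2 and 4, slide 3 mutants 3 and 4 and WT 3. Alternatives were the normalization, background correction, filter on dim probes, slide and replicate blocks, 12 arrays, 1 probe or the mean of probes per gene, and each array left out. The fit was tested on simulated data.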

Additional observations from a re-analysis of the deposited data

Results flagged for a closer look

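In 9 of 240 groups of 4 arrays checked, 2 for each of the 120 named genes, a sample stood far from the other 3. Chance flags about 1 in 20 groups, so this number is no more than that. Ooep stood at -4.45 in mutant replicate 2, with the nearest mutant at -5.72, and at -2.28 in WT smoke replicate 4, with the nearest at -2.49. The same mutant had the lowest level of Dbp, 4.55 against 4.85 for the nearest. The other mutants that stood apart were replicate 3 for Timeless (-0.27, nearest -0.70) and replicate 1 for Nfil3 (-1.46, nearest -1.23). WT smoke replicate 3 stood apart for Slc51a (-7.10, nearest -6.98), Cry2 (1.06, nearest 0.91) and Lonrf3 (-1.78, nearest -1.57), and WT smoke replicate 4 for Myh2 (-7.30, nearest -6.76).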

How the results depend on the processing

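Of the 100 named genes that were called, 39 kept the call in all of up to 19 settings and 0 turned sign with a call. The slide block ended 40 of these calls, the omission of the filter on dim probes 49, normexp background correction 17, and the omission of single arrays 9 (mutant replicate 2) to 48 (WT smoke replicate 3). Rora kept its call in every setting, with changes of -2.23 to -2.16 over the single arrays left out. Outside the interval the main counts of 383 higher and 602 lower probes became 103 and 119 without the filter, 143 and 192 when slide was a blocking factor, 600 and 1098 with all 12 arrays in the fit, and 393 lower with 1 probe per gene. Inside, 27 higher and 36 lower became 11 and 20 without the filter and 16 and 22 with the slide block, and 21 lower with 1 probe per gene. Leaving out 1 array gave 120 to 354 higher and 130 to 835 lower probes outside, and 12 to 27 higher and 18 to 46 lower inside. With the replicate block the counts were 139 and 218 outside and 12 and 19 inside, and 42 named genes lost their calls. Same-numbered mutant and WT smoke arrays had correlations of their deviations from the group means of -0.008, 0.179, -0.076 and -0.088. The labels do not say whether replicate numbers pair the mice, and so few values cannot decide it. Fits with fewer arrays or more terms leave fewer degrees of freedom, and the fit without a filter adjusts over more probes; other causes were not tested.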

Other observations

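Beside Lrmda on chromosome 14 (probe at 21844556 to 21844615, mm8), the cDNA AK084429 on the same chromosome (21477874 to 21477933) also fell, from -2.40, -2.63, -2.54 and -2.57 in WT smoke replicates 1 to 4 to -4.71, -4.94, -4.77 and -4.77 in mutants 1 to 4. Its change was -2.26 ± 0.07 (SE) with a limma adjusted p of 2.07e-06. The pair lies outside the interval around Rora on another chromosome, and the probes share no gene name in the files. AK084429 was picked after its values were seen.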
